A study of Homo sapiens with 12 samples.

Results

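The genes described here encode the subunits of the mitochondrial respiratory chain and of ATP synthase, the machinery of oxidative phosphorylation. Protein-coding rows were taken by symbol prefix for complex I (NDUFA, NDUFB, NDUFC, NDUFS, NDUFV), complex II (SDHA to SDHD), complex III (UQCR), complex IV (COX4I to COX8) and complex V (ATP5F1, ATP5M, ATP5P), and the mitochondrially encoded subunits were added by name. This gave 93 genes of 18668 in the deposited table, 80 of them nuclear and 13 mitochondrial. The nuclear genes numbered 37 for complex I, 4 for complex II, 9 for complex III, 13 for complex IV and 17 for complex V. NDUFA4 and NDUFA4L2, whose prefix is that of complex I, were placed with complex IV, where the NDUFA4 protein is found in human mitochondria. All 93 were among the 17702 genes that passed the filter on low counts. The smallest read count in the deposited table was 1, so every listed gene had reads in all 12 libraries. Genes without reads in some library may have been left out before deposit, and shares of all genes are over the listed genes that passed the filter. The prefixes leave out some true subunits, among them the complex III gene CYC1.

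RNA was sequenced from 22Rv1, an established human prostate cancer line that grows without androgen, labelled wild type in every group. Cells were exposed for 24 h to a degrader (label 22Rv1_2024), to a ligand that activates autophagy (label 22Rv1_1021), to enzalutamide, a prostate cancer drug, or to vehicle. Each of the 4 groups had 3 biologically independent libraries, made from poly(A) RNA with a stranded kit. No dose was given in the labels, so the compounds were compared at one time and at unstated concentrations. The 12 libraries held 55547270 to 77208794 counted reads. Luminal prostate genes such as KRT8 and KRT18 were expressed (10 of 11 markers listed), and the basal markers KRT5, KRT14 and TP63 were not listed among the genes of the table.

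Electrons from NADH enter the chain at complex I and those from succinate at complex II. They pass through complexes III and IV to oxygen, and the proton gradient that builds up drives ATP synthase, also called complex V. Complex II is built from nuclear genes alone, while the other complexes combine nuclear subunits, made in the cytosol and imported, with subunits encoded by the small circular mitochondrial genome. That genome is transcribed as long RNAs from both strands, and the tRNAs lying between the other genes are cut out to release the mRNAs and rRNAs. Transcription factors such as NRF1, the ETS factor GABP, YY1 and the estrogen-related receptors are known to act at promoters of the nuclear genes.

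RefSeq promoter windows of 300 bases, from 250 before to 50 after the start, were matched for 67 of the 80 nuclear genes. Some genes had more than 1 start, and a match in any of their windows counted for the gene. ATP5F1A and COX7A2L had 2 starts each, and 1 window of each is printed below, preferring the window with more kinds of motif. In the lines that follow, 200 bases before and 10 after the start are printed for the gene of each complex with the lowest p among those that were lower with the degrader and held a match to the NRF1, ETS, YY1 or estrogen-related receptor motif, and for COX7A2L, the 1 nuclear gene that was higher. They are shown so that the motif matches can be read in place; capitals mark the matches, and all run 5′ to 3′ on the strand of the gene.
NDUFB4 (GRCh38.p14 chr3:120596136-120596345, plus strand): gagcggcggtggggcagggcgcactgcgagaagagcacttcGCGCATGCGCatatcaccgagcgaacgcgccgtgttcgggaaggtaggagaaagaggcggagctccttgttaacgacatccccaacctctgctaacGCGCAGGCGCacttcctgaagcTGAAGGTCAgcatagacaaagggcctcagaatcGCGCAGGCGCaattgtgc
SDHA (GRCh38.p14 chr5:218120-218329, plus strand): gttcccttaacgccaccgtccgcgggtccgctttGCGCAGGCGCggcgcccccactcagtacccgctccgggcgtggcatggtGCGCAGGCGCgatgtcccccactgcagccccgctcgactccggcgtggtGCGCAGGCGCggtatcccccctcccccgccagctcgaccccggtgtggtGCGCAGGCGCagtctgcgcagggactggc
UQCRFS1 (GRCh38.p14 chr19:29213142-29213351, minus strand): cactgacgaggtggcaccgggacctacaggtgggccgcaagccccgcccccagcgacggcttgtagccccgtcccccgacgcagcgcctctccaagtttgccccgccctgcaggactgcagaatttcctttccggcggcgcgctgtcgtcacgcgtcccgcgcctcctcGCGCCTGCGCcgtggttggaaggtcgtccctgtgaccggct
COX6B1 (GRCh38.p14 chr19:35648123-35648332, plus strand): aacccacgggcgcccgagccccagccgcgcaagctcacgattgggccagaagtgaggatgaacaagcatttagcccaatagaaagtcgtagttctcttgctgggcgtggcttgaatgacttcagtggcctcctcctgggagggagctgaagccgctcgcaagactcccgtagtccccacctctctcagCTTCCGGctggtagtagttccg
ATP5F1A (GRCh38.p14 chr18:46098287-46098496, minus strand): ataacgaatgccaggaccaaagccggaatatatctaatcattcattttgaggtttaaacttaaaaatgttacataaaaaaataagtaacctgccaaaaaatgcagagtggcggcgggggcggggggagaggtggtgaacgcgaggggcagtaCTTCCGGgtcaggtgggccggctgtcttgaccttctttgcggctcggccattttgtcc
COX7A2L (GRCh38.p14 chr2:42361208-42361417, minus strand): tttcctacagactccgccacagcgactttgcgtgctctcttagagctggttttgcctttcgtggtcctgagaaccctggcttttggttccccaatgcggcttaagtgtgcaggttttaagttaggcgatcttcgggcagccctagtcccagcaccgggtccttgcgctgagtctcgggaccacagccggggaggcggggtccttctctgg

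With both strands searched, the NRF1 motif (GCGCA, any base, GCGC) was in promoters of 23.9% of the 67 nuclear genes. It was in those of 12.3% of 11783 protein-coding genes in the table. The ETS motif (CCGGAAG) was in 31.3% against 20.8%, the YY1 motif (AA, any base, ATGG, CGGC) in 13.4% against 3.46% and the estrogen-related receptor motif (TNAAGGTCA) in 2.99% against 0.764%. At least one of the first 3 was found for 55.2% of the nuclear genes and for 32.4% of all. The CCAAT box (CCAAT) was in 32.8% against 43.2%, and the E-box (CACGTG) in 10.4% against 12.5%. In the SDHA promoter the NRF1 motif occurred at -166, -117, -68 and -19, counted to its first base from the transcription start, and NDUFB4 held it at -159, -63 and -8 beside an estrogen-related receptor motif at -41. COX7A2L held no match to any of these 4 factors' motifs in either of its 2 windows. That does not set it apart, since the other genes printed were chosen for holding a match. Genes that were lower with the degrader, such as NDUFV2, NDUFAB1 and COX7B, held none of these 4 motifs either. The matches describe the sequence only, and binding was not measured.

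The first question was how the degrader altered the 2 sets of genes that build the same complexes. Nuclear genes were lower in degrader-treated cells across all 5 complexes, while no mitochondrial gene was called lower and 2 were called higher. By edgeR's quasi-likelihood test with Benjamini-Hochberg adjustment over all genes tested (called at an adjusted p under 0.05), 59 of the 80 nuclear genes fell, 1 rose and 20 were not called, against a background of 16.4% of all genes called lower and 16.4% called higher. The median log2 fold change of the nuclear genes was -0.24 (quartiles -0.33 and -0.17), and that of all genes tested was 0.0057. In 68 nuclear genes all degrader libraries lay below all vehicle libraries, which held for 22.1% of all genes. Of the 13 mitochondrial genes, 2 rose, 0 fell and 11 were not called, with a median of 0.025. The count of mitochondrial genes that rose was near the 16.4% of all genes called higher. In bulk RNA a smaller share of cells that express a gene and less RNA per cell cannot be told apart. Values are also relative to all other RNA, so a fall is one against the rest of the transcriptome.

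**Figure D1:**
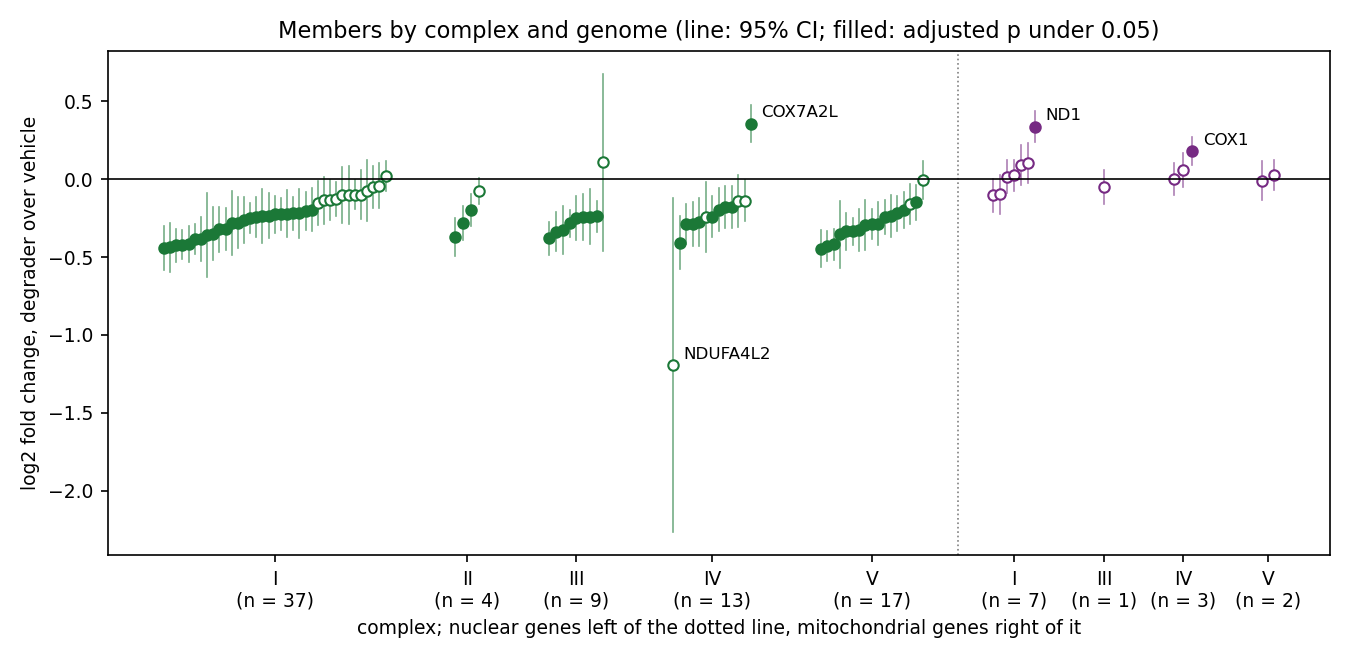
Log2 fold change of each respiratory chain and ATP synthase gene, degrader over vehicle (y axis), by complex (x axis), with nuclear genes in green on the left and mitochondrial genes in purple on the right. Points are edgeR estimates, lines are 95% confidence intervals, and filled points passed an adjusted p of 0.05. Nuclear points lie mostly between -0.45 and 0, with NDUFA4L2 at -1.19 and COX7A2L above 0, and mitochondrial points lie around 0 apart from ND1 and COX1.

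Summed reads gave the same picture library by library. The 80 nuclear genes took 1.15, 1.11 and 1.10% of the counted reads in the degrader libraries, against 1.38, 1.34 and 1.30% in the vehicle libraries. These ranges did not overlap, and replicate 1 was the highest in both groups. The 13 mitochondrial genes took 7.71, 7.47 and 8.12% with the degrader and 7.39, 7.27 and 7.58% with vehicle, which overlapped. The libraries therefore held 6.72, 6.73 and 7.35 mitochondrial reads per nuclear read of this machinery with the degrader, against 5.35, 5.44 and 5.84 with vehicle. With the ligand this ratio was 5.37, 5.67 and 5.95, and with enzalutamide 4.99, 5.55 and 5.61, both within or near the range of vehicle. Every degrader library stood above every library of the other groups.

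**Figure D2:**
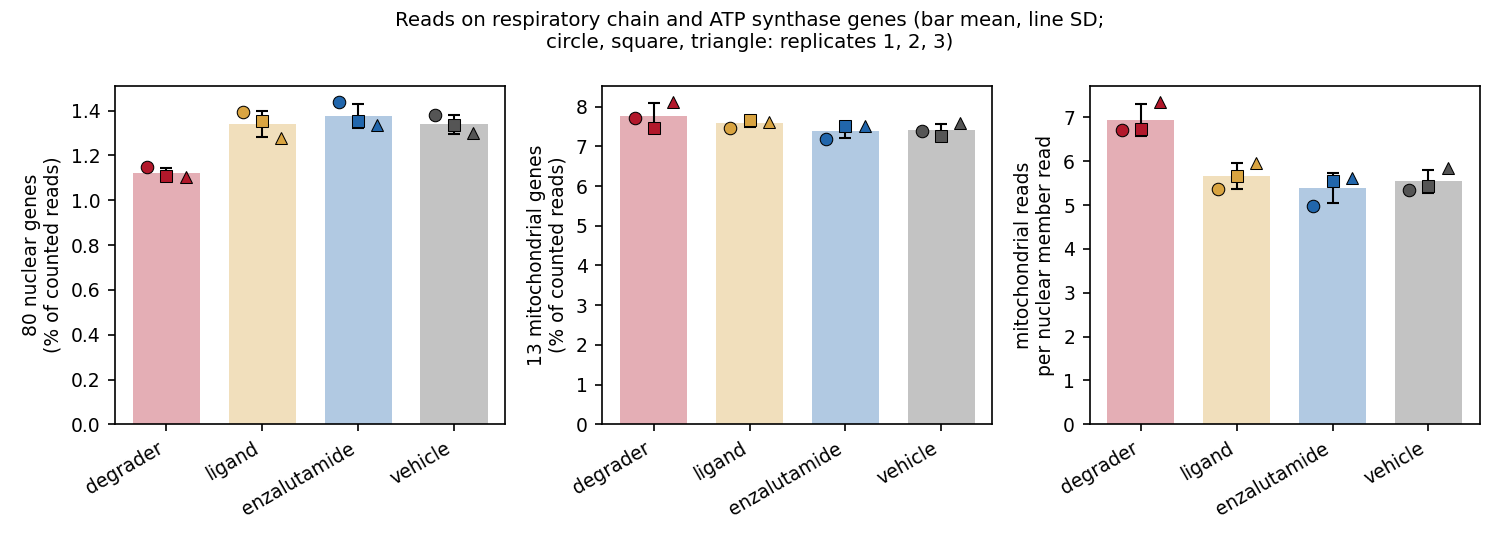
Percent of counted reads on the 80 nuclear genes (left), on the 13 mitochondrial genes (middle) and their ratio (right), in 3 libraries of each group. Bars are means, lines are SD, and circles, squares and triangles are replicates 1, 2 and 3. The nuclear share lies lowest and the ratio highest in the 3 degrader libraries, while the mitochondrial shares overlap between groups.

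Per transcript length, the mitochondrial mRNAs were far more abundant than their nuclear partners in every group. On the deposited TPM scale the median mitochondrial gene stood at 14625 with the degrader and 15357 with vehicle, and the median nuclear gene at 215 with the degrader and 250 with vehicle. The highest mitochondrial level was that of COX2, a catalytic subunit of complex IV, at 28665 TPM with the degrader and 27033 with vehicle. The lowest was ND6, the one mRNA encoded on the light strand, at 1037 TPM with the degrader and 954 with vehicle. Among nuclear genes ATP5F1B led with 1896 TPM in degrader libraries and 2498 TPM in vehicle libraries. UQCRHL, a near-identical copy of the hinge protein gene UQCRH, was lowest at 3.0 TPM with the degrader and 2.69 with vehicle, and its reads may be shared with UQCRH.

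Complex I, the NADH dehydrogenase, had 25 of its 37 nuclear genes lower and 12 not called, with a median log2 fold change of -0.23. Its 7 nuclear core subunits, which include those that carry the flavin and the iron-sulphur clusters, all fell, by 0.22 to 0.41. Of its 30 accessory subunits, 18 fell. This division, like those of complexes III and V below, was drawn after the values were seen. The calls of NDUFS7 and NDUFS8 were lost without degrader replicate 2 or 3 or vehicle replicate 1 or 2 (adjusted p up to 0.139). Both are core subunits, and some accessory calls, such as that of NDUFA2 (up to 0.117), were lost too. NDUFB4, an accessory subunit of the membrane arm, had 94.0, 95.9 and 93.0 CPM, counts scaled to library size, in degrader libraries, against 133, 122 and 125 CPM in vehicle libraries. The groups were well apart (log2 fold change -0.42, SE 0.050, edgeR adjusted p = 7.44e-06). NDUFC2, another membrane arm subunit, had 52.3, 51.1 and 52.9 CPM with the degrader, against 71.6, 69.1 and 68.4 CPM with vehicle. It also fell by 0.42 (SE 0.045, 2.71e-06), again with no overlap.

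Some complex I genes stood outside this fall. NDUFV3, an accessory subunit of the NADH-binding part, had a log2 fold change of 0.023 (adjusted p = 0.75), and NDUFB11, a membrane arm subunit, was at -0.040 (0.698). NDUFA5, NDUFA6, NDUFA8, NDUFA11, NDUFA13 and NDUFB5 were not called either, with values from -0.13 to -0.052. NDUFA8 and NDUFB5 had all degrader libraries below all vehicle libraries, and the groups of the other 6 overlapped. These 8 genes were named after their values were seen, because none of them was called against vehicle, enzalutamide or the ligand.

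Complex II, succinate dehydrogenase, is the complex without a mitochondrial gene, and 3 of its 4 genes fell. SDHA, the flavoprotein that oxidises succinate, had 181, 174 and 168 CPM with the degrader, against 232, 219 and 224 CPM with vehicle (-0.37, SE 0.058, adjusted p = 0.000122). SDHB, which carries the iron-sulphur clusters, fell by 0.28 (SE 0.051, 0.0005), and the membrane anchor SDHD fell by 0.20 (SE 0.050, 0.00582). The other anchor, SDHC, had 199, 202 and 206 CPM with the degrader and 211, 215 and 215 CPM with vehicle. Its libraries did not overlap, yet its log2 fold change of -0.076 missed the threshold (0.158).

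Complex III passes electrons from ubiquinol to cytochrome c, and 8 of its 9 nuclear genes fell, the exception being the sparsely covered UQCRHL (0.11, SE 0.27, adjusted p = 0.8). UQCRFS1, the Rieske iron-sulphur protein, had 90.2, 85.5 and 81.3 CPM with the degrader and 111, 115 and 108 CPM with vehicle (-0.38, SE 0.050, 2.17e-05). The 2 large core proteins fell as well, UQCRC1 by 0.34 (SE 0.060, 0.000419) and UQCRC2 by 0.28 (SE 0.041, 5.25e-05). The mitochondrial partner CYTB, the cytochrome b subunit, had 4968, 4637 and 5259 CPM with the degrader, against 5037, 5105 and 5237 CPM with vehicle. Its groups overlapped (-0.049, SE 0.052, 0.507). CYC1, the cytochrome c1 gene that the prefix rule leaves out, fell by 0.33 (SE 0.073, 0.00272).

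Complex IV, cytochrome c oxidase, was the one complex with a nuclear gene that rose. Of its 13 nuclear genes 8 fell, 1 rose and 4 were not called. COX7B, a small subunit, had 114, 98.8 and 104 CPM in degrader libraries and 153, 133 and 135 CPM in vehicle libraries (-0.41, SE 0.080, adjusted p = 0.00101). COX6B1, on the intermembrane side, fell by 0.29 (SE 0.061, 0.00165), COX7A2 by 0.29 (SE 0.067, 0.00358), COX8A by 0.28 (SE 0.072, 0.00739) and NDUFA4 by 0.24 (SE 0.062, 0.00674). COX4I1, the common form of subunit 4, fell by 0.18 (SE 0.064, 0.0441), and this call was lost without degrader replicate 2 or 3 or vehicle replicate 1 or 3, at an adjusted p of up to 0.152. COX6A1 was at -0.14 (0.192).

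COX7A2L, known for joining complexes III and IV into supercomplexes, had 44.9, 43.2 and 43.4 CPM with the degrader, 38.1, 34.4 and 37.6 CPM with the ligand, 31.5, 34.0 and 30.8 CPM with enzalutamide and 35.4, 33.9 and 33.4 CPM with vehicle. The degrader libraries lay above all others. It rose by 0.36 on the log2 scale against vehicle (SE 0.056, adjusted p = 0.000134), by 0.26 against the ligand (0.0027) and by 0.45 against enzalutamide (1.5e-05). Its paralog COX7A2, by contrast, fell in the same libraries, so the subunit 7a genes moved in opposite directions. NDUFA4L2, a hypoxia-inducible relative of NDUFA4, had 26.3, 16.2 and 14.9 CPM with the degrader, 33.0, 13.5 and 24.0 CPM with the ligand, 29.2, 12.9 and 21.8 CPM with enzalutamide and 65.8, 27.7 and 37.9 CPM with vehicle. Replicate 1 was the highest of each group. The degrader and vehicle libraries did not overlap, but the spread was wide and the log2 fold change of -1.19 (SE 0.47) was not called (0.0868; DESeq2 called it at 0.0314).

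**Figure D3:**
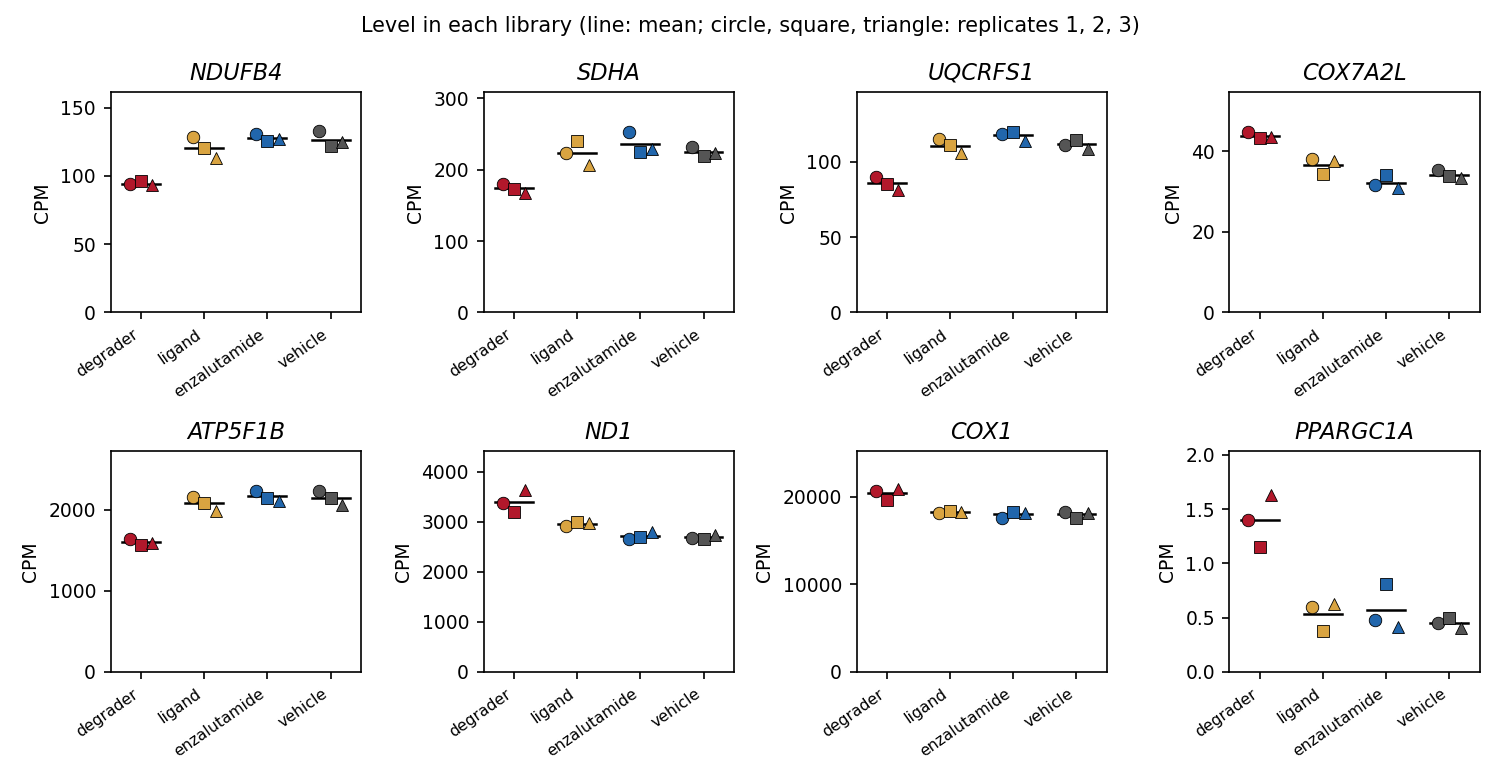
CPM in each library (y axis, from 0) of 5 nuclear subunit genes (NDUFB4, SDHA, UQCRFS1, COX7A2L, ATP5F1B), 2 mitochondrial genes (ND1, COX1) and the coactivator gene PPARGC1A, in the 4 groups (x axis). Lines are means of 3 libraries, and circles, squares and triangles are replicates 1, 2 and 3. In each panel the 3 degrader libraries lie apart from the 3 vehicle libraries.

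ATP synthase had the largest share of the reads on the nuclear genes, and 15 of its 17 genes fell, with a median of -0.29. ATP5F1B, the catalytic beta subunit, had 1639, 1572 and 1586 CPM with the degrader, against 2231, 2151 and 2066 CPM with vehicle (-0.43, SE 0.046, adjusted p = 2.59e-06). The alpha subunit gene ATP5F1A fell by 0.33 (SE 0.041, 1.07e-05). Of the 5 genes of the F1 head and central stalk 4 fell, and of the 12 genes of the membrane part and peripheral stalk 11 fell. The mitochondrial partners ATP6 and ATP8 were at 0.026 (0.704) and -0.0084 (0.931).

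Subunit c, which forms the rotating ring, is encoded by 3 genes that make the same mature protein, and these did not move together. ATP5MC1 had 86.2, 87.2 and 87.0 CPM with the degrader and 122, 117 and 115 CPM with vehicle (-0.45, SE 0.056, adjusted p = 1.47e-05). ATP5MC3 had 95.2, 90.3 and 96.1 CPM with the degrader, against 126, 125 and 124 CPM with vehicle (-0.42, SE 0.047, 4.06e-06). ATP5MC2, the most abundant of them per length, had 349, 312 and 319 CPM with the degrader and 347, 322 and 315 CPM with vehicle, and overlapped fully (-0.0071, SE 0.057, 0.941). Together the subunit c genes summed to 507 ± 21.1 CPM with the degrader and 572 ± 21.7 CPM with vehicle (SD, n = 3 each).

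The mitochondrial mRNAs were close to even between the groups, with ND1 and COX1 as the exceptions. ND1, a membrane subunit of complex I, had 3370, 3206 and 3628 CPM with the degrader, 2915, 2997 and 2985 CPM with the ligand, 2654, 2689 and 2790 CPM with enzalutamide and 2684, 2660 and 2731 CPM with vehicle. The degrader libraries were above all others, and the ligand libraries lay between. ND1 rose by 0.34 against vehicle (SE 0.047, adjusted p = 3.69e-05). COX1, the catalytic core of complex IV, had 20700, 19644 and 20826 CPM with the degrader, against 18199, 17577 and 18138 CPM with vehicle (0.18, SE 0.042, 0.00291). ND1 took 4.41 ± 0.0866% of the reads on mitochondrial mRNAs with the degrader and 3.61 ± 0.0440% with vehicle, and COX1 took 26.4 ± 0.499% with the degrader and 24.1 ± 0.259% with vehicle (SD, n = 3 each). Neither call was lost when any single library was left out.

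The remaining 11 mitochondrial mRNAs had log2 fold changes between -0.10 and 0.10. Among complex I genes ND2 was at 0.017 (adjusted p = 0.821), ND3 at 0.10 (0.208), ND5 at 0.025 (0.726) and ND6 at 0.094 (0.257). ND4 and ND4L, which share an RNA and overlap in sequence, were at -0.10 each (0.132 and 0.227). COX2 was at 0.057 (0.431) and COX3 at 0.0019 (0.98). ND4 had 11650, 11316 and 12700 CPM in degrader libraries and 12706, 12185 and 13382 CPM in vehicle libraries, which overlapped. Without degrader replicate 3 ND4 was called lower, and without vehicle replicate 3 ND6 was called higher. How reads on overlapping mitochondrial genes, or on the opposite strand of ND6, were assigned is not given in the sources used here.

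Placed in genome order, several of the RNAs that rose lie near the start of the heavy-strand transcript. TRNF, the tRNA gene that comes first, had 3.34, 2.88 and 3.38 CPM with the degrader and 1.60, 1.27 and 1.92 CPM with vehicle, a log2 fold change of 1.00 (SE 0.15, adjusted p = 9.35e-05). TRNV followed at 0.86 (SE 0.12, 5.29e-05), TRNL1 at 0.58 (SE 0.061, 2.17e-06), and ND1 lies directly after TRNL1. RNR2, the large rRNA between TRNV and TRNL1, had 9968, 9234 and 9739 CPM with the degrader, against 8032, 7276 and 7208 CPM with vehicle (0.36, SE 0.056, 0.000108). Its groups did not overlap. The small rRNA RNR1, which lies between TRNF and TRNV, interrupted the run with 678, 599 and 622 CPM with the degrader and 727, 596 and 599 CPM with vehicle (-0.017, SE 0.075, 0.893).

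Further along, TRNM (0.47, adjusted p = 0.00837), TRND (0.60, 0.00194) and TRNK (0.47, 0.0379) rose, which made 6 of 22 tRNA rows and 1 of 2 rRNA rows higher and 0 of either lower, where 16.4% of all genes were called in each direction. The TRNK call was lost without degrader replicate 1 or 3 or vehicle replicate 1 or 2, at up to 0.14. TRNF, TRNV, RNR2 and TRNL1 also rose with the degrader against enzalutamide (1.28, 0.91, 0.50 and 0.66) and against the ligand (1.08, 0.78, 0.45 and 0.42). Except for TRNL1 these tRNA rows held few reads (at most 5.22 CPM in any degrader library for TRNF and TRNV). Reads of mature tRNAs and of uncut precursor RNAs that span them cannot be told apart. The libraries were made from poly(A) RNA, so reads on rRNA and tRNA rows need not follow the amount of each RNA.

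**Figure D4:**
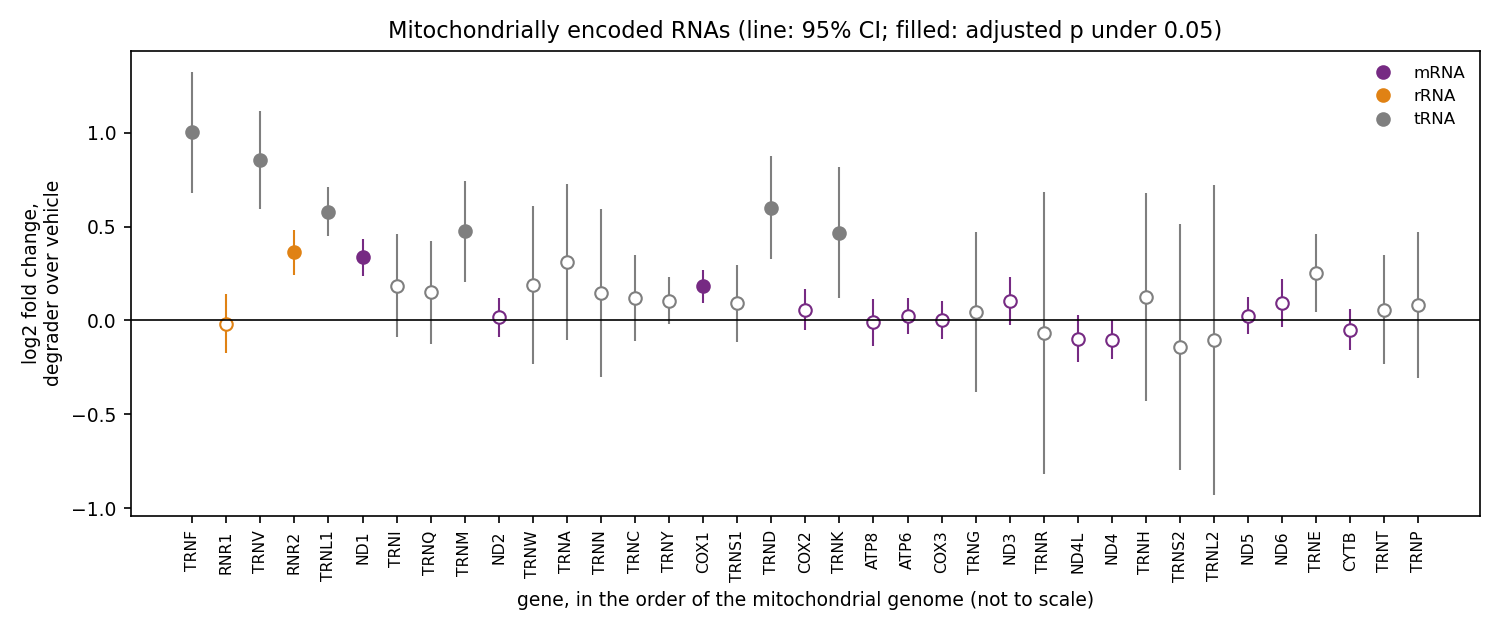
Log2 fold change, degrader over vehicle (y axis), of the 13 mRNAs, 2 rRNAs and 22 tRNAs of the mitochondrial genome in genome order (x axis, not to scale). Points are edgeR estimates with 95% confidence intervals, and filled points passed an adjusted p of 0.05. TRNF, TRNV, RNR2, TRNL1 and ND1 lie above 0 on the left, with RNR1 at 0 among them.

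The other compounds addressed whether these changes also came with enzalutamide or with the ligand. With enzalutamide against vehicle 1 of the 80 nuclear genes fell, 0 rose, and 0 of the 13 mitochondrial genes were called by edgeR, where 1.44% of all genes were called. DESeq2 gave the same counts, and 2 nuclear and 0 mitochondrial genes had an unadjusted p under 0.05. The gene called was NDUFC2, with 61.1, 61.4 and 60.0 CPM with enzalutamide, against 71.6, 69.1 and 68.4 CPM with vehicle (-0.20, adjusted p = 0.036). This call was lost without any one of the 6 libraries compared, at up to 0.171, and when those libraries were fitted alone (0.0508). Median log2 fold changes were 0.038 for nuclear and -0.021 for mitochondrial genes.

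With the ligand against vehicle 0 nuclear and 0 mitochondrial genes were called by edgeR or by DESeq2, where 0.237% of all genes were called. At an unadjusted p under 0.05 there were 0 nuclear and 2 mitochondrial genes. These were ND1 (0.14, adjusted p = 0.44) and ND5 (0.13, 0.562). Median log2 fold changes were 0.018 for nuclear and 0.043 for mitochondrial genes.

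Set directly against these compounds, the degrader libraries again had lower nuclear levels. Against enzalutamide 67 nuclear genes fell and 1 rose (16.1% of all genes were called lower and 16.3% higher), with a median of -0.26. Of the mitochondrial genes 3 rose and 0 fell, with a median of 0.040. They were ND1 (0.33, adjusted p = 5.21e-05), COX1 (0.18, 0.00304) and ND3 (0.22, 0.00935), and ND3 lost its call without degrader replicate 3 (0.0603). Against the ligand 62 nuclear genes fell and 1 rose (14.2% of all genes lower, 14.3% higher), with a median of -0.26. ND1 (0.20, 0.00446) and COX1 (0.16, 0.00808) rose there, and the mitochondrial median was -0.0075, with 7 of 13 values below 0. The count of 2 in 13 that rose was near the 14.3% of all genes called higher. At an unadjusted p under 0.05, CYTB (-0.11, adjusted p = 0.124) and ND5 (-0.10, 0.127) lay lower with the degrader than with the ligand, and neither was called. Without degrader replicate 3, CYTB and ND4 were called lower there. The largest falls of subunits named above were those of ATP5MC1, by 0.49 against enzalutamide and by 0.52 against the ligand.

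The 3 comparisons of the degrader share its libraries, so their calls are not independent. Not more than 14.2% of all genes can be lower in all 3, the share called lower against the ligand. The share of all genes called in none was not counted. In all 3 comparisons 58 nuclear genes fell, COX7A2L rose, and 12 nuclear genes were called in none. Besides the 8 complex I genes named above, those 12 were SDHC, UQCRHL, NDUFA4L2 and ATP5MC2.

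**Figure D5:**
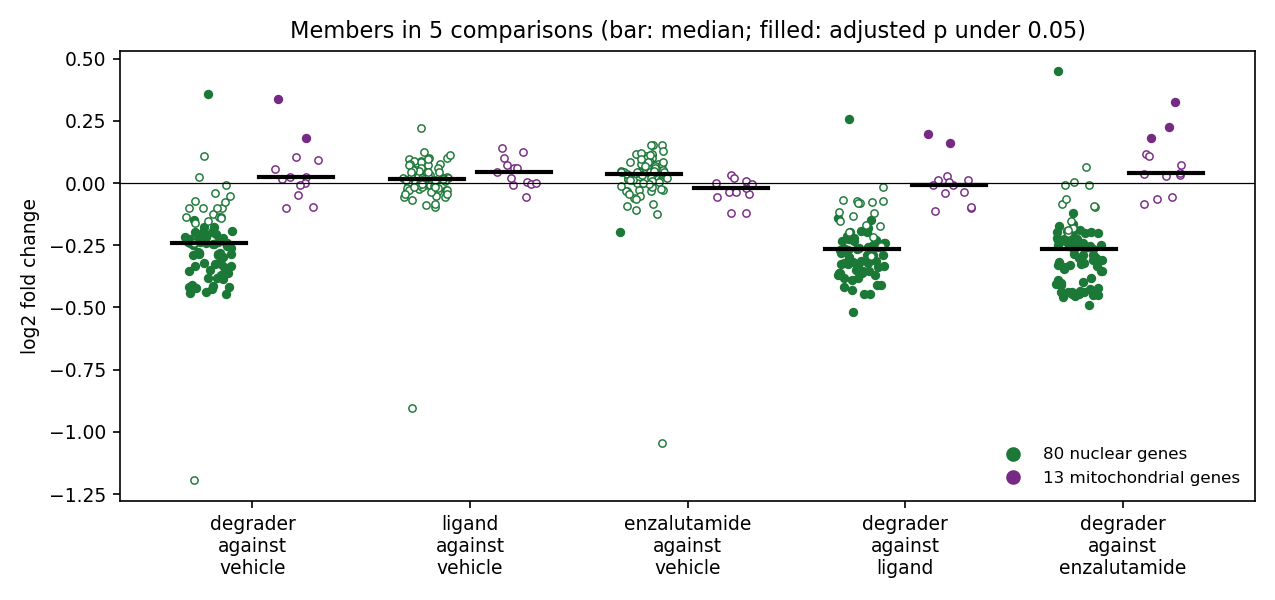
Log2 fold changes (y axis) of the 80 nuclear genes in green and the 13 mitochondrial genes in purple in 5 comparisons (x axis). Black bars are medians, and filled points passed an adjusted p of 0.05. Nuclear medians lie at -0.24, -0.26 and -0.26 where the degrader is compared and near 0 for ligand or enzalutamide against vehicle.

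Genes that transcribe and copy the mitochondrial genome were next set beside these values, again degrader against vehicle by edgeR. In this comparison 16.4% of all genes were called lower and 16.4% higher, the shares against which the counts of this list and of those that follow stand. Of 16 genes 7 fell and 1 rose (median -0.18). TWNK, the replicative helicase, had 42.9, 42.6 and 39.3 CPM with the degrader and 52.1, 52.4 and 52.9 CPM with vehicle (-0.33, adjusted p = 0.000141). The DNA polymerase gene POLG fell by 0.30 (0.000531) and MTERF3, a regulator of mitochondrial transcription and ribosomes, by 0.35 (0.00218). MTERF4, which acts in assembly of the mitochondrial ribosome, rose by 0.18 (0.00246). TFAM, the factor that packages the genome and starts transcription, was at -0.21 and not called (0.0588).

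Genes of mitochondrial RNA processing and stability fell in 13 of 22 cases and rose in 0 (median -0.19). ELAC2, which cuts tRNAs from precursors at their 3′ ends, had 87.3, 87.3 and 86.7 CPM with the degrader, against 112, 110 and 111 CPM with vehicle (-0.35, adjusted p = 4.13e-05). PNPT1, an RNA-degrading exonuclease, fell by 0.38 (2.71e-05), and TBRG4, a FASTK family protein that binds mitochondrial RNAs, by 0.43 (3.63e-05). LRPPRC, which stabilises mitochondrial mRNAs, was at 0.021 (0.794).

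Among 14 regulators of the nuclear respiratory genes 5 rose and 0 fell (median 0.014), beside 16.4% of all genes in each direction. PPARGC1A, the coactivator PGC-1alpha, had 1.40, 1.15 and 1.63 CPM with the degrader, 0.599, 0.379 and 0.626 CPM with the ligand, 0.474, 0.806 and 0.416 CPM with enzalutamide and 0.447, 0.494 and 0.401 CPM with vehicle. It was low in every library and highest in the degrader libraries (1.63 over vehicle, SE 0.26, adjusted p = 0.000127). PPARA, a nuclear receptor of fatty acid oxidation, averaged 40.6 ± 1.34 CPM with the degrader and 26.9 ± 1.09 CPM with vehicle (SD, n = 3 each) and rose by 0.59 (4.79e-07). NR2C2 rose by 0.33 (0.00179), ESRRG, an estrogen-related receptor gene, by 0.50 (0.00295) and the corepressor gene NRIP1 by 0.23 (0.0143), which lost its call without degrader replicate 2 (0.065) or vehicle replicate 1 (0.0592). Of the factors whose motifs were searched above, ESRRG was thus called, and others were not: NRF1 was at -0.0082 (0.927), GABPA at -0.021 (0.896), YY1 at 0.0053 (0.942) and ESRRA at -0.022 (0.847).

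Factors that assemble the complexes fell in part. For complex I 9 of 17 fell and 1 rose (16.4% of all genes in each direction), including FOXRED1 (-0.37, adjusted p = 1.92e-05), NDUFAF4 (-0.40, 0.000325) and NDUFAF1 (-0.28, 0.000744). The one that rose, TMEM126B (0.18, 0.0456), lost its call in 5 of the 6 cases with a library left out, at up to 0.18. For complexes II, III and V 8 of 13 fell and 0 rose, led by ATPAF1 (-0.32, 0.000121), UQCC2 (-0.39, 0.000359) and UQCC1 (-0.27, 0.00219). For complex IV 8 of 23 fell and 0 rose, led by CMC2 (-0.56, 6.35e-07), COX18 (-0.46, 2.99e-06) and HIGD1A (-0.34, 0.000108). COX18 was also lower with enzalutamide against vehicle (-0.27, 0.00629). Medians of these 3 lists were -0.17, -0.22 and -0.13.

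Electron carriers, ubiquinone synthesis and nucleotide carriers, a list of components that the prefixes leave out, fell in 12 of 20 cases and rose in 1 (median -0.19). PDSS1, the first enzyme of the ubiquinone tail, fell by 0.43 (adjusted p = 8.62e-05), ETFA, an electron transfer flavoprotein, by 0.25 (0.000306) and the adenine nucleotide carrier SLC25A5 by 0.27 (0.000426). Another adenine nucleotide carrier, SLC25A6, had 432, 388 and 357 CPM with the degrader, against 336, 287 and 298 CPM with vehicle, and was the gene that rose (0.35, SE 0.090, 0.00725). Tricarboxylic acid cycle genes, which supply the chain with NADH and succinate, fell in 14 of 17 cases and rose in 0 (median -0.30). FH, fumarate hydratase, had 192, 184 and 185 CPM with the degrader and 262, 265 and 261 CPM with vehicle (-0.49, SE 0.042, 2.09e-07). IDH2 fell by 0.48 (1.55e-05) and DLST by 0.31 (2.33e-05).

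Of 14 mitochondrial chaperone and protease genes 7 were lower and 2 higher (median -0.12), the count of higher genes being near the 16.4% of all genes called higher. GRPEL1, a nucleotide exchange factor of mitochondrial HSP70, fell by 0.51 (adjusted p = 7.09e-07), and the chaperone TRAP1 by 0.45 (9.86e-06). HSPA9, mitochondrial HSP70 itself, had 816, 810 and 813 CPM with the degrader, against 654, 675 and 675 CPM with vehicle, and rose by 0.28 (3.00e-05). The protease gene LONP1 rose by 0.42 (0.000268).

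Some markers of cell identity moved in the same comparison. The 10 luminal genes summed to 2798 to 2895 CPM with the degrader, 3464 to 3572 with the ligand, 3095 to 3219 with enzalutamide and 3512 to 3721 CPM with vehicle, and 7 of them fell, among them KRT8 (-0.75, adjusted p = 3.16e-06), STEAP1 (-0.49, 1.87e-06) and HOXB13 (-0.32, 4.51e-05), where 16.4% of all genes were called lower. STEAP1 was also lower with enzalutamide against vehicle (-0.68, 5.02e-07), and it was higher with the degrader than with enzalutamide (0.19, 0.0102). Of 14 basal and stromal markers 10 were listed, summing to 218 to 224 CPM with the degrader, 225 to 229 with the ligand, 209 to 220 with enzalutamide and 251 to 257 CPM with vehicle. Of these 10, 2 fell, a count near the 16.4% of all genes called lower, and 4 rose, beside 16.4% called higher. FN1 fell by 0.54 (3.40e-06), and it was also lower with enzalutamide (-0.45, 0.000246) and with the ligand (-0.39, 0.00543) against vehicle. CD44 fell by 0.13 (0.0293), and CDH2, TAGLN, KRT15 and ITGA6 rose, with at most 6.91 CPM in any degrader library. Those 4 calls were lost without some libraries, at an adjusted p of up to 0.0879, 0.0959, 0.117 and 0.206 in that order, and that of CD44 at up to 0.147. With enzalutamide against vehicle CD44 was lower as well (-0.24, 0.00406), and CDH2 was higher (0.43, 0.0327). CD44 was higher with the degrader than with enzalutamide (0.12, 0.0479). Of 6 neuroendocrine markers listed, 1 fell, ENO2 (-0.31, 0.000321), a count near the 16.4% of all genes called lower. The neuroendocrine list summed to 346 to 371 CPM with the degrader, 386 to 406 with the ligand, 383 to 401 with enzalutamide and 387 to 421 CPM with vehicle. The part of these shifts in the values of the respiratory chain genes was not tested.

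Replicate 1 stood somewhat above the others for the nuclear genes in every group. Their mean log2 CPM was 6.65, 6.57 and 6.58 in degrader replicates 1, 2 and 3, 6.93, 6.86 and 6.77 with the ligand, 6.96, 6.83 and 6.81 with enzalutamide and 6.91, 6.83 and 6.80 with vehicle. All degrader libraries lay below all other libraries. No batch was given in the labels. Of the 62 nuclear and mitochondrial genes called in degrader against vehicle, 44 held with any single library left out. Read-through rows were small beside their host genes. NDUFC2-KCTD14 held 1.61% as many reads as NDUFC2 with the degrader and 0.204% with vehicle. Its reads numbered 129, 39 and 9 in the degrader libraries and 3, 7 and 18 in the vehicle libraries, which overlapped. ATP5MF-PTCD1 held 3.81% as many as ATP5MF with the degrader and 4.97% with vehicle.

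In the authors' deposited table, degrader against vehicle had 62 of the 80 nuclear genes lower and 1 higher at an adjusted p under 0.05, and 2 of the 13 mitochondrial genes higher. Shares of all genes called were not counted for that table, so its counts stand here without a background. The authors' deposited table gave ATP5F1B a signed fold change of -1.35 and ND1 one of 1.26, where a minus sign marks the inverse ratio of a fall. For enzalutamide against vehicle the authors' deposited table had 1 nuclear gene lower, and for the ligand 0 of the 93 genes.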

How the data were processed

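Poly(A) RNA libraries of 22Rv1 cells were deposited as one gene table. Per the submitters' processing notes, reads were processed with HISAT2 and StringTie on GRCh37, with versions not given. The deposited read counts are whole numbers per gene, not normalized. The TPM values were deposited by the authors, scaled to length and library size, and were used for levels between genes. The authors also deposited a score for each compound against vehicle, a signed linear fold change, with a Benjamini-Hochberg p-value (test not named). Columns of means and other values, 28 in all, were not used.

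Counts were filtered with edgeR filterByExpr (minimum count 10, minimum total count 15; 966 genes left out), scaled by TMM and fitted with the robust quasi-likelihood model to 12 libraries with group as the term (8 residual degrees of freedom); 5 contrasts were tested, with Benjamini-Hochberg adjustment over 17702 genes and calls at 0.05. CPM uses TMM-scaled totals; mean log2 CPM has a prior count of 2. With 55547270 to 77208794 reads a library, counting error limits only the least covered genes. Replicates of a group differed by 5.56 to 22.8 times the sampling noise (chi-square over its degrees of freedom). P-values measure the spread between libraries.

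Members and the 12 gene lists were chosen with earlier results of these data known. Named were all mitochondrial genes, per complex up to 3 called genes of lowest p in each direction, up to 4 per other comparison, isoform genes and up to 3 called genes per list; others were named after their values were seen. Lists were mitochondrial transcription and replication, RNA processing, regulators, 3 sets of assembly factors, carriers, tricarboxylic acid cycle, chaperones and proteases, and luminal, basal and stromal, and neuroendocrine markers. FASTKD4 was matched by its symbol TBRG4. Mitochondrial gene order and promoters come from RefSeq on GRCh38.p14. Alternatives were DESeq2, its size factors in edgeR, other filters, scaling without mitochondrial genes, 6 libraries per fit, a replicate block and each library left out. Tools were DESeq2 1.42.0, edgeR 4.0.16 and limma 3.58.1, run in R 4.3.3. The molecular target of the degrader and the values of some genes are not reported here.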

Additional observations from a re-analysis of the deposited data

How the results depend on the processing

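Counts of nuclear genes called in the 3 degrader comparisons kept their direction and stayed within 1.5 times under every alternative run. Mitochondrial genes called for the degrader against the ligand were 5 in place of 2 with the replicate block (ND1 and COX1 higher, CYTB, ND4 and ND5 lower). All genes called there were 6559, against 5049 without the block. The replicate numbers were not treated as pairs, because the labels tie them to nothing shared and only 7 of 18 same-numbered correlations passed 0.1 (range -0.0323 to 0.207). However, 9 of 12 libraries lay closest to their own number, a hint from the data that numbers may share something. With the replicate block, degrader against vehicle called 68 nuclear genes lower and 3 mitochondrial genes (ND1 and COX1 higher, ND4 lower). All genes called lower there were 3606, against 2897 without the block. With the block, enzalutamide against vehicle called 553 genes (255 without it) and 2 nuclear genes lower (1 without it). The ligand against vehicle called 191 genes with the block (42 without it) and 1 mitochondrial gene (0 without it). That gene was ND1, which was higher with the ligand (0.14, edgeR adjusted p = 0.0497). DESeq2 called 398 genes for enzalutamide and 124 for the ligand against vehicle. For degrader against vehicle DESeq2 called 62 nuclear genes lower, beside 3107 of all genes. Fitting 6 libraries alone gave 0 nuclear genes for enzalutamide and 25 genes for the ligand.

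With each library left out in turn, nuclear genes called lower ranged over 42 to 59 for the degrader against vehicle, 49 to 66 against enzalutamide and 45 to 69 against the ligand, and mitochondrial genes called over 2 to 3, 2 to 4 and 2 to 4. In the same order, 4580 to 5217, 4531 to 5210 and 3781 to 5408 of all genes were called, higher and lower together. All genes called lower alone were not counted with a library left out. For enzalutamide against vehicle 173 to 218 genes and 0 nuclear genes were called, and for the ligand 21 to 77 genes. Sign changes were seen only for genes near 0 and not called. COX3 was at -0.0050 with DESeq2 size factors, -0.0043 without a filter and -0.0042 with DESeq2, and ranged from -0.036 to 0.034 with a library left out. So did ND2 (-0.037 to 0.055), ND5 (-0.0033 to 0.064), ATP6 (-0.0072 to 0.068), ATP8 (-0.056 to 0.020) and, for enzalutamide against vehicle, ND1 (-0.013 to 0.025). With reads of protein-coding genes as the denominator, mitochondrial mRNAs took 8.02% of reads with the degrader, 7.79% with the ligand, 7.60% with enzalutamide and 7.62% with vehicle. Among genes not called, NDUFA4L2 passed with DESeq2 (0.0314) and with the block (0.00133). The cause of these changes was not tested. Depth limits UQCRHL and most tRNA rows.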
